A study of Mus musculus with 9 samples.

Results

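The 9 pigment genes described here are Dct, Tyrp1, Tyr, Pmel, Mlana, Mitf, Oca2, Slc45a2 and Slc24a5, taken by name from the 29205 genes of the deposited table. They were followed in RNA from the back skin of male BALB/c mice aged 6 to 8 weeks, in 3 groups of 3 libraries. The backs of all mice were shaved and treated with depilatory cream. The control group had no further treatment of the skin. The IMQ group had 62.5 mg of a 5% imiquimod cream spread on the back each day for 5 days, which gives psoriasis-like lesions through Toll-like receptors. The LYS-High group had the same cream and, by gavage, the high dose of Longkui Yinxiao Soup (LYS), a herbal decoction. Skin was taken on day 13. The sources used here do not say whether each library came from a single mouse, so the p-values measure the spread between libraries.

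Melanocytes make melanin in melanosomes, organelles related to lysosomes. In the hairy skin of the mouse they sit mainly in the hair follicle, where the melanocytes of the bulb are active during anagen, the growth phase, and are lost as the follicle regresses. The transcription factor Mitf governs the lineage. Its targets include the enzymes Tyr, Tyrp1 and Dct, the melanosome proteins Pmel and Mlana, and transporters that set the pH and ion content of the melanosome. BALB/c mice are albino because their tyrosinase does not work. Their melanocytes are present and transcribe the pigment genes, so that RNA and not colour was the readout here.

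Promoter sequences are shown for the 4 genes in which the extended M-box core, a sequence bound by MITF, was found. RefSeq promoters (GRCm38.p6, 250 bases before to 50 after each start) were matched for 6 of the 9 genes, namely Dct, Tyrp1, Tyr, Oca2, Slc24a5 and Mitf, the last with several starts. Each is printed 5′ to 3′ on the strand of the gene, with CATGTG, or CACATG where the core lies on the other strand, in capitals. The Tyr promoter is chr7:87493463-87493762 on the minus strand, that of Tyrp1 chr4:80833963-80834262 on the plus strand, that of Dct chr14:118052197-118052496 on the minus strand and that of Slc24a5 chr2:125067877-125068176 on the plus strand.
Tyr: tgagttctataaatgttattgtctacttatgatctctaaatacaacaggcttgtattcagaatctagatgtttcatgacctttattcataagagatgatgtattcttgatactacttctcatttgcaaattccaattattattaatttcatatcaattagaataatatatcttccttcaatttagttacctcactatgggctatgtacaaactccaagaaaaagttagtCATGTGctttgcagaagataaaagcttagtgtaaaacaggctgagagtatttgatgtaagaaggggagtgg
Tyrp1: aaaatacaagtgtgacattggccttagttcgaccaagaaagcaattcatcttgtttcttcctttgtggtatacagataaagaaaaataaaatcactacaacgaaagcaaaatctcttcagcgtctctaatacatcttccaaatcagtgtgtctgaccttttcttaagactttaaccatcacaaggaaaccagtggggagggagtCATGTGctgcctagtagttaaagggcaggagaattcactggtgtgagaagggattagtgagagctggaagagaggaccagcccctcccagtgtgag
Dct: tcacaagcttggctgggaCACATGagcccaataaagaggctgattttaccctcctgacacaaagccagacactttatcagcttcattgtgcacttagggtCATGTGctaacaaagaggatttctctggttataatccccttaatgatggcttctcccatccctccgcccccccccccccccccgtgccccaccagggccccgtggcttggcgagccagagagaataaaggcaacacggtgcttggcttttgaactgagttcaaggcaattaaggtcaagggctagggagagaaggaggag
Slc24a5: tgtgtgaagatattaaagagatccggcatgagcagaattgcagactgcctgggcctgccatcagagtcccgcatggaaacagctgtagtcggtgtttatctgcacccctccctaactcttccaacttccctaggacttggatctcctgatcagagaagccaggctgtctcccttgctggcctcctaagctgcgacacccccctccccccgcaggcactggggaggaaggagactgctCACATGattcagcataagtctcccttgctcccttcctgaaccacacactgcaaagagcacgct
The core began at position -21 from the start in Tyr, at -46 in Tyrp1 and at -13 in Slc24a5, and the Dct window held 2 copies. CATGTG or its reverse complement CACATG was found in these 4 genes and in Oca2, 5 of the 6 matched, and in the promoters of 15.9% of all 27025 genes of the promoter table. The extended form TCATGTG or CACATGA, which contains the shorter motif, was found in 4 of the 6 and in 4.31% of all genes. ACAAAG or CTTTGT, a core bound by SOX factors such as the melanocyte regulator Sox10, was in 3 of the 6 (Tyrp1, Oca2 and Dct) and in 21% of all genes. The canonical E-box CACGTG was in 0 of the 6 and in 8.09% of all genes. None of these letters was found in the 3 Mitf windows. These matches describe the sequence only.

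The library totals were 14658645 to 19609878 counts on genes. The skin markers Krt5, Krt14 and Col1a1 were counted in every library. Between LYS-High and IMQ, edgeR called 0 genes with every library, 4262 without LYS-High replicate 1 and 1873 without IMQ replicate 1. The counts called in that comparison are given with and without LYS-High replicate 1, which moved them most. Levels are given as CPM, counts scaled to library size with TMM factors, and as FPKM, which is per length, where genes are compared with each other. A gene was called when edgeR's adjusted p was under 0.05 and its absolute log2 fold change over 0.58, and SE is the standard error of that change.

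In control skin Tyrp1, Pmel and Dct led the set. By FPKM, Tyrp1 was highest at 49.5 ± 13.7 (SD, n = 3), followed by Pmel at 40.2 ± 12.7 and Dct at 27.4 ± 8.28. The ranges of these 3 genes overlapped from each to the next. Mlana, at 10.004 ± 2.85 FPKM, lay below Dct without overlap, and Mitf, at 6.39 ± 0.200 FPKM, below Mlana without overlap. Tyr (4.72 ± 1.56 FPKM) overlapped with Mitf. The transporters were lowest, with Slc24a5 at 2.88 ± 0.647, Slc45a2 at 2.70 ± 1.44 and Oca2 at 1.67 ± 0.918 FPKM, each overlapping with its neighbour. All 9 genes were counted in every control library, the lowest count being 79, for Oca2.

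The control libraries were not alike in these genes. Control replicate 3 held the highest CPM of 8 of the 9 pigment genes, all but Mitf, and control replicate 2 the lowest of 6. Both held for 6 of 9 pigment genes (66.7%), for 23 of 25 genes of the anagen hair list (92%) and for 21.5% of all 15976 genes tested. This order was taken from the same values, so that the shares describe these libraries only. Mitf differed from the rest, with 35.7, 35.4 and 34.2 CPM in the control libraries.

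**Figure D1:**
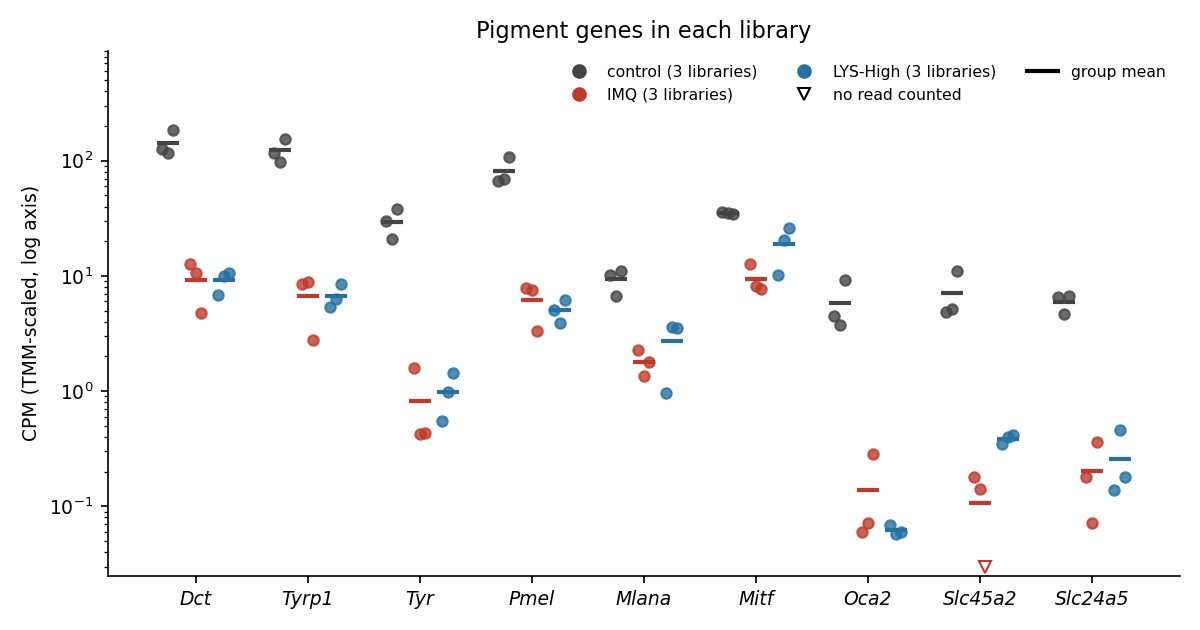
CPM (TMM-scaled, log axis) of each pigment gene in the 3 control, 3 IMQ and 3 LYS-High libraries, with a bar for the group mean and an open triangle where no read was counted. Every IMQ and LYS-High library lay below every control library for all 9 genes, while the IMQ and LYS-High libraries overlapped for 8 of 9.

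The comparison of the IMQ group with the control group asked how the genes stood in lesional skin. All 9 pigment genes were called lower in the IMQ group and none overlapped with the control group, whereas 51% of the 15976 genes tested were called, 24.1% higher and 26.9% lower, and 38.9% lay lower without overlap. The means fell to between 1.52% (Slc45a2) and 27.0% (Mitf) of the control mean. The median log2 fold change of the 9 was -4.13, against -0.06 over all genes tested. In bulk skin, a smaller share of melanocytes among the cells and less RNA per melanocyte cannot be told apart.

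Tyr (ENSMUSG00000004651, chromosome 7, 87424771 to 87493512 in GRCm38) encodes tyrosinase, the enzyme that starts melanin synthesis. It had 29.9, 20.7 and 37.8 CPM in the control libraries and 1.60, 0.427 and 0.430 CPM in the IMQ libraries. The IMQ replicate 1 library was above the other IMQ libraries, and the groups were far apart. The log2 fold change was -5.04 (SE 0.47, edgeR adjusted p = 7.7e-05). Without IMQ replicate 1 the change was -6.00.

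Tyrp1 (ENSMUSG00000005994, chromosome 4, 80834123 to 80851719) encodes a tyrosinase-related enzyme of the same pathway. It had 117.5, 97.8 and 154.4 CPM in the control libraries and 8.48, 8.90 and 2.79 CPM in the IMQ libraries. IMQ replicate 3 was the lowest library. Tyrp1 fell by 4.13 on the log2 scale (SE 0.40, edgeR adjusted p = 9.3e-05).

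Dct (ENSMUSG00000022129, chromosome 14, 118012790 to 118052244) encodes dopachrome tautomerase, the enzyme that acts after tyrosinase and that marks melanoblasts before pigment is made. Its control libraries held 125.6, 116.7 and 184.5 CPM, and its IMQ libraries 12.6, 10.5 and 4.73 CPM. As for Tyrp1, the lowest library was IMQ replicate 3. The log2 fold change was -3.87 (SE 0.36, edgeR adjusted p = 7.7e-05), which left 6.52% ± 2.86 of the control mean (SD, n = 3).

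Pmel (ENSMUSG00000025359, chromosome 10, 128704195 to 128720238) encodes the protein that forms the fibrils on which melanin is laid down. It had 66.9, 69.3 and 106.8 CPM in the control libraries against 7.83, 7.47 and 3.30 CPM in the IMQ libraries. Pmel fell by 3.64 on the log2 scale (SE 0.34, edgeR adjusted p = 7.9e-05). Its exons share 34 bases with Cdk2 and 105 with Dgka on the opposite strand, 1.48% and 4.58% of its exon length, and the library kit does not mark strand.

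Mlana (ENSMUSG00000024806, chromosome 19, 29697824 to 29708634) encodes a membrane protein of early melanosomes that binds Pmel. It had 10.2, 6.67 and 11 CPM in the control libraries and 2.25, 1.35 and 1.79 CPM in the IMQ libraries. The groups did not overlap, but 19.3% ± 4.84 of the control mean remained (SD, n = 3), beside 2.78% for Tyr and 5.46% for Tyrp1. Its log2 fold change was -2.30 (SE 0.30, edgeR adjusted p = 0.00037).

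The transporters lay close to the limit of counting after IMQ. Oca2 (ENSMUSG00000030450, chromosome 7, 56239760 to 56536518), a melanosomal membrane protein that raises the pH, had 92, 79 and 185 reads in the control libraries and 1, 1 and 4 in the IMQ libraries. Slc45a2 (ENSMUSG00000022243, chromosome 15, 11000721 to 11029233), another regulator of melanosome pH, had 100, 110 and 223 reads and then 3, 2 and 0. Slc24a5 (ENSMUSG00000035183, chromosome 2, 125068124 to 125088677), an exchanger of sodium, calcium and potassium, had 133, 98 and 134 reads against 3, 1 and 5. In each of the 3 genes the highest IMQ library was more than 10-fold below the lowest control library. The log2 fold changes were -5.30 for Oca2 (edgeR adjusted p = 0.00026), -5.84 for Slc45a2 (0.00019) and -4.77 for Slc24a5 (7.7e-05). With so few reads the folds are loose. Without IMQ replicate 3 the log2 fold change of Oca2 was -6.27 and that of Slc24a5 -5.37. The ratio of summed counts, scaled for library size, was 43.1 for Oca2 (95% exact interval 19.6 to 118), 62.9 for Slc45a2 (26.7 to 195) and 29.4 for Slc24a5 (15.3 to 64.9). These intervals cover counting error only. Slc24a5 shares 921 exon bases (39.5%) with Myef2 on the opposite strand, and the effect of this overlap on its counts was not tested.

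Mitf (ENSMUSG00000035158, chromosome 6, 97807052 to 98021349) fell least of the set. Its control libraries were the most even, with 35.7, 35.4 and 34.2 CPM, and the IMQ libraries held 12.6, 8.18 and 7.67 CPM. The log2 fold change was -1.82 (SE 0.20, edgeR adjusted p = 0.00017), and 27.0% ± 7.68 of the control mean remained (SD, n = 3). Mitf is not particular to melanocytes and is also used by mast cells and macrophages. Mast cell genes summed to 190.9 to 327.4 CPM in the control group and 166.6 to 273.0 CPM in the IMQ group, with 6 of 10 called lower and 1 higher. The gene called higher was Hdc, the histidine decarboxylase that makes histamine, which rose by 3.44 on the log2 scale (edgeR adjusted p = 0.0003) and made up 63.3% of the IMQ sum. Without Hdc, named after its values were seen, the list summed to 176.2 to 311.5 CPM in the control group and 71.3 to 106.7 CPM in the IMQ group. Macrophage genes summed to 1547 to 2027 CPM and 882.2 to 1223 CPM, with 5 of 10 called lower. Over all genes tested 24.1% were called higher and 26.9% lower. None of the defining markers Cma1, Cpa3, Adgre1 and Cd68 was at 0 in any library. The part of these cells in the Mitf values was not tested.

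All 9 pigment genes stayed called lower in each of the 12 alternative settings. With library totals in place of TMM scaling, the median of all genes moved from -0.06 to -0.51 and that of the pigment genes from -4.13 to -4.57, and the split of calls over all genes moved from 3854 higher and 4291 lower to 2390 higher and 6854 lower.

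The comparison of LYS-High with IMQ asked whether LYS changed the levels in lesional skin. No pigment gene was called among the 6 that had enough counts to test, and edgeR called 0% of all 15460 genes tested. At an unadjusted p under 0.05, 2978 genes were higher (19.3%) and 2457 lower (15.9%). DESeq2 called 3319 genes (21.1%), 12.3% higher and 8.79% lower, of which 0 were pigment genes. A gene that was not called is not thereby shown to be unchanged, and the intervals below give the sizes that the libraries leave possible.

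The enzymes and Pmel had close means in the 2 groups. Tyr had 0.551, 0.978 and 1.42 CPM in the LYS-High libraries, inside the range of the IMQ libraries, and its log2 fold change was 0.24 (95% interval -1.27 to 1.75, edgeR adjusted p = 0.805). For Tyrp1 the LYS-High libraries held 5.38, 6.33 and 8.54 CPM, with a log2 fold change of 0.01 (-1.03 to 1.04, edgeR adjusted p = 0.995). Dct had 6.89, 10.01 and 10.5 CPM and a log2 fold change of -0.02 (-0.90 to 0.86, edgeR adjusted p = 0.97). All LYS-High values of these enzymes lay within the IMQ range. Pmel had 5.03, 3.91 and 6.17 CPM and a log2 fold change of -0.30 (-1.18 to 0.58, edgeR adjusted p = 0.591). A difference of 2-fold in either direction lies inside the interval for Tyr, Tyrp1 and, downward only, Pmel, and outside that for Dct.

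Mlana had 0.965, 3.57 and 3.56 CPM in the LYS-High libraries. LYS-High replicate 1 lay below every IMQ library and the other two above, and the log2 fold change of 0.59 (95% interval -0.62 to 1.80) was not called (edgeR adjusted p = 0.437). Without LYS-High replicate 1 it was 0.97 (edgeR adjusted p = 0.0666).

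Mitf had the largest difference of the tested pigment genes. The LYS-High libraries held 10.1, 20.4 and 26.1 CPM, and only LYS-High replicate 1 overlapped with the IMQ libraries, of which the highest was 12.6 CPM. The log2 fold change was 0.99 (95% interval 0.12 to 1.87), with an unadjusted p of 0.031 and an edgeR adjusted p of 0.11. The adjusted p ranged from 0.0161 to 0.307 over the alternatives, and DESeq2 gave 0.0518. Without the library LYS-High replicate 1, Mitf was called higher, at 1.29 (edgeR adjusted p = 0.0161). The gene lists of macrophages and mast cells, which also use Mitf, were set beside it. The macrophage genes summed to 1518 to 3641 CPM in the LYS-High group against 882.2 to 1223 CPM in the IMQ group, with a median log2 fold change of 1.48 over 10 genes. The mast cell genes summed to 277.3 to 326.6 CPM against 166.6 to 273.0 CPM, with a median of 1.36, and without Hdc to 147.4 to 284.6 CPM against 71.3 to 106.7 CPM. edgeR called 0 of these genes. DESeq2 called 8 of 10 macrophage and 7 of 10 mast cell genes higher, beside 12.3% of all genes. Without LYS-High replicate 1, edgeR called 10 of 10 macrophage and 7 of 10 mast cell genes higher, beside 2370 of all 15895 genes tested. The part of these cells in the Mitf difference was not tested.

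The 3 transporters had too few counts to pass edgeR's filter in these 6 libraries. Slc45a2 was the pigment gene whose groups did not overlap, with 5, 7 and 7 reads in the LYS-High libraries after 3, 2 and 0 in the IMQ libraries. Over all genes tested, 38.5% did not overlap between these groups, 19.2% of all with LYS-High higher. The ratio of the IMQ to the LYS-High counts of Slc45a2 was 0.286 (95% exact interval 0.0834 to 0.791, counting error only). Fitted without the filter, its log2 fold change was 1.76 (95% interval -0.40 to 3.92, edgeR adjusted p = 0.338). Oca2 had 1, 1 and 1 reads and Slc24a5 2, 8 and 3 reads in the LYS-High libraries, both overlapping with the IMQ group.

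**Figure D2:**
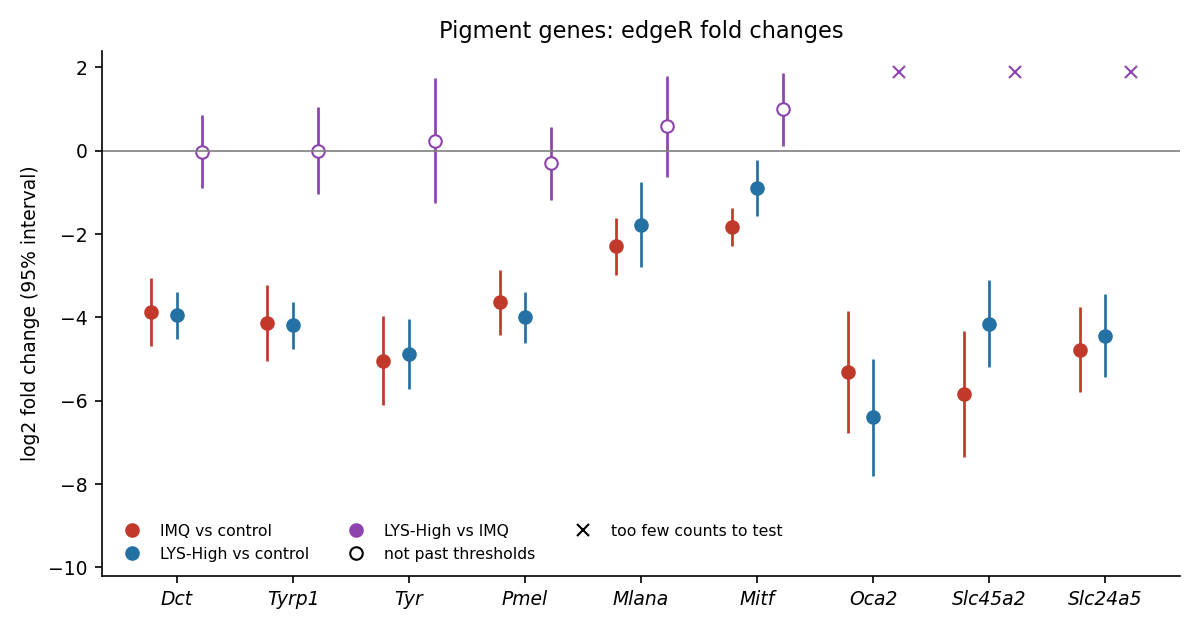
edgeR log2 fold changes of the pigment genes with 95% intervals for the 3 comparisons (filled points are past both thresholds, crosses mark genes with too few counts to test). Both comparisons with control lie below 0 for every gene, and the LYS-High against IMQ values lie between -0.30 and 0.99 with intervals that cross 0, except for Mitf.

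Against the control group, the LYS-High group had all 9 pigment genes called lower and none overlapping, beside 28% of 16003 genes called, 15.1% higher and 12.9% lower, and 25.5% lower without overlap. This comparison uses the same control libraries as the IMQ comparison, so the 2 sets of values are not independent. Dct stood at 6.42% ± 1.38 of its control mean in the LYS-High group (SD, n = 3) and at 6.52% ± 2.86 in the IMQ group. Tyrp1 stood at 5.48% ± 1.32 and 5.46% ± 2.77, and Tyr at 3.34% ± 1.48 and 2.78% ± 2.30. For each enzyme the 2 group means differed by less than the SD of the libraries.

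Pmel stood at 6.22% ± 1.39 of its control mean in the LYS-High group and Mlana at 29.0% ± 16.1. The log2 fold changes against control were -3.95 for Dct, -4.18 for Tyrp1, -4.88 for Tyr and -4.00 for Pmel, with edgeR adjusted p-values from 0.00016 to 0.00029. Mlana was at -1.78 (edgeR adjusted p = 0.0199) and was not called without control replicate 1 (0.0814) or control replicate 3 (0.0622). Mitf, at 53.8% ± 23.0 of the control mean, had the smallest change, -0.90 (edgeR adjusted p = 0.0474). That call was lost in 6 of 12 alternatives, with adjusted p-values up to 0.145, among them each fit without a control replicate and the fit without LYS-High replicate 2. Oca2 had 3 reads in the LYS-High group in all, a 93.6-fold lower scaled count (95% exact interval 31.8 to 456), with a log2 fold change of -6.40 (edgeR adjusted p = 0.00063). Slc45a2 was at -4.15 (0.00107) and Slc24a5 at -4.44 (0.00072), or -5.15 without LYS-High replicate 2.

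The proportions among the pigment genes were then compared by dividing the FPKM of each gene by that of Dct in the same library, which removes a change shared by the whole set. Tyrp1 was 1.74 to 1.95 times Dct in the control group, 1.23 to 1.76 times in the IMQ group and 1.32 to 1.70 times in the LYS-High group. Pmel was 1.37 to 1.53 times Dct, then 1.60 to 1.82 times and 1.01 to 1.88 times. Against control, the Pmel ratio was higher without overlap in the IMQ group, with a log2 difference of 0.25. The Tyrp1 ratio was lower without overlap in the LYS-High group, at -0.24. These shifts were small beside the fall of the genes themselves. Tyr was 0.147 to 0.197 of Dct in the control group, 0.0336 to 0.106 in the IMQ group and 0.0663 to 0.112 in the LYS-High group, lower without overlap in both. Oca2 was 0.0477 to 0.0739 of Dct in the control group. It overlapped in the IMQ group and was lower without overlap in the LYS-High group (0.00841 to 0.0149), on very few reads. Slc24a5, also on few reads, was 0.0910 to 0.131 of Dct in the control group and overlapped with it in both treated groups. Slc45a2 was 0.0768 to 0.118 of Dct in the control group, 0 to 0.0280 in the IMQ group and 0.0782 to 0.0988 in the LYS-High group. IMQ replicate 3 had no Slc45a2 read, so that its ratio was not among those tested below.

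Mlana and Mitf moved the other way from Tyr. Mlana was 0.319 to 0.455 of Dct in the control group, 0.716 to 2.11 times Dct in the IMQ group and 0.781 to 1.99 times in the LYS-High group. Mitf was 0.176 to 0.288 of Dct in the control group, 0.739 to 1.54 times Dct in the IMQ group and 1.40 to 2.36 times in the LYS-High group. The log2 difference of the Mitf ratio was 2.10 between IMQ and control and 2.95 between LYS-High and control. In a two-sided exact permutation test each of these separations gave p = 0.1, the smallest that 3 against 3 allows, and an adjusted p of 0.233 over the 21 ratios tested. Between LYS-High and IMQ the ratios of Mitf overlapped (exact permutation p = 0.2, adjusted 0.42). Mast cells and macrophages also use Mitf, and their part in its ratio to Dct was not tested.

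**Figure D3:**
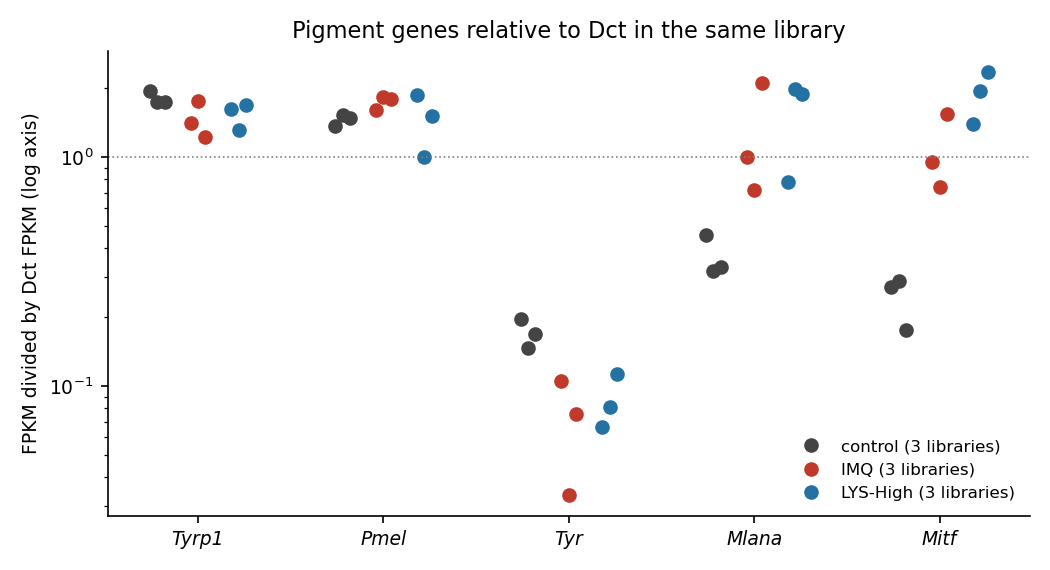
FPKM of 5 pigment genes divided by the FPKM of Dct in the same library (log axis), each point being 1 library of the control, IMQ or LYS-High group. Tyrp1 and Pmel stay between 1.01 and 1.95 throughout, Tyr is lower and Mlana and Mitf higher in the IMQ and LYS-High libraries than in the control libraries.

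By mean FPKM in the IMQ group, Pmel (2.36 ± 1.05), Tyrp1 (2.08 ± 1.10), Mlana (1.48 ± 0.477), Dct (1.38 ± 0.674) and Mitf (1.34 ± 0.490) overlapped from each to the next, and Tyr (0.104 ± 0.0932) lay below them without overlap (SD, n = 3). In the LYS-High group Mitf (3.17 ± 1.44), Mlana (2.66 ± 1.52), Tyrp1 (2.47 ± 0.675), Pmel (2.27 ± 0.549) and Dct (1.60 ± 0.392) likewise overlapped from each to the next, and Tyr (0.144 ± 0.0679) was again apart.

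The genes that guide the lineage were examined next, from a list of 19 regulators and signals of which Asip was not analysed here. In the IMQ group 11 of the 16 tested were called lower and 2 higher, beside 26.9% and 24.1% of all genes, with a median log2 fold change of -1.64. Mc1r, the melanocortin receptor that switches melanocytes to eumelanin, had 107, 107 and 181 reads in the control libraries and 1, 0 and 0 in the IMQ libraries. The scaled ratio was 287 (95% exact interval 51.2 to 11356, counting error only). Pax3, which acts with Sox10 on Mitf, had 41, 31 and 59 reads and then 3, 0 and 2, a log2 fold change of -4.12 (edgeR adjusted p = 0.00092).

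Sox10, the regulator that switches on Mitf, had 138, 135 and 151 reads in the control libraries and 51, 79 and 28 in the IMQ libraries, a log2 fold change of -0.89 that edgeR did not call (adjusted p = 0.0551) and DESeq2 did (0.0488). Sox10 also marks Schwann cells. The Schwann cell list summed to 647.7 to 783.6 CPM in the control group and 232.0 to 379.0 CPM in the IMQ group, with 9 of 12 called lower and 1 higher, beside 26.9% and 24.1% of all genes. In the LYS-High group, where that list summed to 237.6 to 686.0 CPM, Sox10 had 70, 87 and 124 reads and overlapped with both other groups. The part of Schwann cells in the Sox10 values was not tested.

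Ligands and receptors that sustain melanocytes were lower in the IMQ group. Kit, the receptor tyrosine kinase of melanoblasts and also of mast cells, was at -1.68 on the log2 scale (edgeR adjusted p = 0.00134) and its ligand Kitl at -1.86 (0.00044). Ednrb, the endothelin receptor of the lineage, was at -2.65 (7.2e-05) and its ligand Edn3 at -3.67 (0.00047). The part of cells other than melanocytes in the Kit, Kitl, Ednrb and Edn3 values of any group was not tested. Corin, a protease of the dermal papilla that acts on coat colour, had the smallest p among the falls, at -5.35 (9.4e-06). Erbb3, at 2.11 (9.4e-05), and Tfap2a were the 2 genes called higher. Both are also expressed by keratinocytes, whose genes Krt5 and Krt14 rose by 1.60 and 3.07 on the log2 scale, and the part of keratinocytes was not tested.

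In the LYS-High group 0 of 13 tested lineage genes were called against IMQ by edgeR, beside 0% of all genes. DESeq2 called 5 higher and 2 lower, beside 12.3% and 8.79% of all genes. Without LYS-High replicate 1, edgeR also called 5 higher and 2 lower, beside 2370 and 1892 of all 15895 genes tested. The median log2 fold change was 0.69, against 0.04 over all genes. Ednrb was at 1.91 (edgeR adjusted p = 0.0591, DESeq2 0.00017), Kit at 1.14 (0.0771 and 0.0161) and Kitl at 1.12 (0.0934 and 0.0288). Edn3 was at 0.93 and was called by neither. Against control, 7 of 16 were called lower and 0 higher, beside 12.9% and 15.1% of all genes, with Mc1r, Pax3, Edn3 and Corin among the 7. The 7 became 5 without control replicate 1, control replicate 2 or LYS-High replicate 2. The Mc1r counts were 1, 4 and 4 and those of Pax3 8, 5 and 1. Kit (-0.60), Kitl (-0.80) and Ednrb (-0.81) were below the control libraries without overlap but were not called by edgeR (adjusted p 0.0572, 0.0582 and 0.0715), and DESeq2 called each.

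Of 31 tested genes for building and moving melanosomes, 10 were called higher and 9 lower in the IMQ group, near the 24.1% and 26.9% of all genes, and the median log2 fold change was -0.05. Without IMQ replicate 2 or IMQ replicate 3, 6 were called lower. With library totals only, 6 were higher and 11 lower and the median was -0.49, beside -0.51 over all genes. Within the list, Trpm1, a channel of melanocytes, fell from 708, 511 and 909 reads to 22, 16 and 0 (log2 fold change -5.30, edgeR adjusted p = 0.0002). Gpr143, the ocular albinism receptor of the melanosome membrane, was at -3.44 (0.00314), Mlph, the melanophilin that links Rab27a to the motor Myo5a, at -2.15 (0.0002), and Sytl2, a Rab27 effector, at -3.31 (0.0001).

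Slc7a11, a cystine carrier that also answers oxidative stress, rose by 6.38 (edgeR adjusted p = 2.5e-05), the largest rise of the list. Rab38, which delivers Tyrp1 to melanosomes and is also an epithelial gene, rose by 2.36 (4.3e-05). Rab27a was called higher at 0.60 (0.00645) but not with library totals (0.14), and Myo5a lower at -0.68 (0.0398) in the fit and in 6 of 12 alternatives. Gpnmb, which macrophages also express strongly, was at -0.18 (0.576). Against control, the LYS-High group had 7 of the 31 called higher and 5 lower, near the 15.1% and 12.9% of all genes, with 2 higher without control replicate 1. Trpm1 (-4.83), Gpr143 (-4.17), Mlph (-1.69) and Sytl2 (-2.02) were among the 5. Against IMQ, edgeR called 0 of 29 and DESeq2 called 5 higher and 1 lower (12.3% and 8.79% of all genes). Without LYS-High replicate 1, edgeR called 7 higher and 3 lower, beside 2370 and 1892 of all 15895 genes tested.

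**Figure D4:**
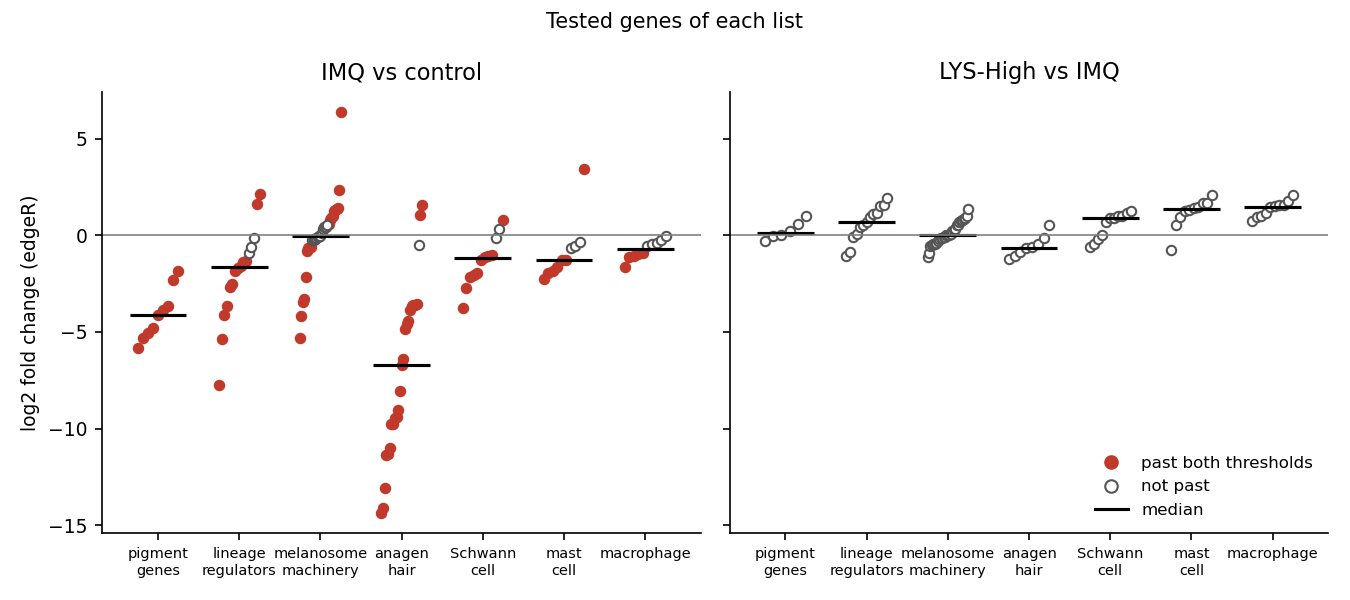
edgeR log2 fold changes of the tested genes of each list, IMQ against control on the left and LYS-High against IMQ on the right (filled red points are past both thresholds, bars are medians). On the left the pigment genes sit near -4.13 and the anagen hair genes reach lowest, where fitted values of genes with no read in the IMQ group are not bounds, and on the right no gene is past the thresholds.

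The pigment genes were last set beside the genes of the growing follicle, a list of 26 matrix, inner root sheath and shaft genes of which Krt85 was not analysed here. In the IMQ group 22 of 25 were called lower and 2 higher, beside 26.9% and 24.1% of all genes. The median log2 fold change was -6.72 as fitted and -5.81 with the 7 genes without a read in the IMQ group at their bound (3 counts over the group). The inner root sheath keratins Krt25, Krt27 and Krt71 had 20525, 7181 and 24740 reads in control replicate 1 and at most 12 in any IMQ or LYS-High library. Krt35, a keratin of the early hair shaft, had 2895, 2062 and 4232 reads in the control libraries and none in the IMQ libraries, at least 2224-fold lower.

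Of the 7 regulators on the list, Shh, Lef1, Msx2 and Hoxc13 were called lower, Foxn1 and Gata3 higher, and Dlx3 was not called. Shh, the signal of the growing bulb, had 440, 453 and 505 reads in the control libraries, 6, 3 and 0 in the IMQ libraries and 4, 1 and 5 in the LYS-High libraries. Lef1 was at -4.60 (edgeR adjusted p = 8.6e-05), Msx2 at -3.63 (5.5e-05), Hoxc13 at -3.62 (7.5e-05) and Tchh, the trichohyalin of the inner root sheath, at -4.85 (3.9e-05). Foxn1, which is also active in the suprabasal epidermis, was at 1.59 (0.00432), Gata3 at 1.03 (0.00837, not called with library totals) and Dlx3 at -0.53 (0.0909). In the LYS-High group 23 of 25 were called lower than control, beside 12.9% of all genes. Against IMQ 0 of the 8 tested by edgeR were called, and 2 of the 7 tested by DESeq2 were called lower (8.79% of all genes). Without LYS-High replicate 1, edgeR also called 2 lower, beside 1892 of all 15895 genes tested.

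Summed over the list, the pigment genes stood at 91.5%, 82.0% and 126.5% of the control mean in the control libraries, 10.4%, 8.46% and 4.86% in the IMQ libraries and 6.72%, 10.5% and 13.0% in the LYS-High libraries. The sum of all 25 hair genes was 97.9%, 65.2% and 136.9%, then 4.70%, 6.38% and 5.93%, and then 3.98%, 2.96% and 2.00%. Gata3, Dlx3 and Foxn1, which are also epidermal genes, made up 85.4% of that sum in the IMQ group, 79.0% in the LYS-High group and 4.11% in the control group. Without these 3 genes, left out after their values were seen, the hair sum was 0.799% to 0.962% of the control mean in the IMQ libraries and 0.344% to 0.813% in the LYS-High libraries, below the pigment sum in every treated library. The pigment sum kept Mitf, which mast cells and macrophages also use. In the control group the mean of Mitf was 35.1 CPM, beside a mean pigment sum of 439.1 CPM. It was 9.47 beside 34.7 CPM in the IMQ group and 18.9 beside 44.2 CPM in the LYS-High group. The sums are led by their most abundant genes.

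**Figure D5:**
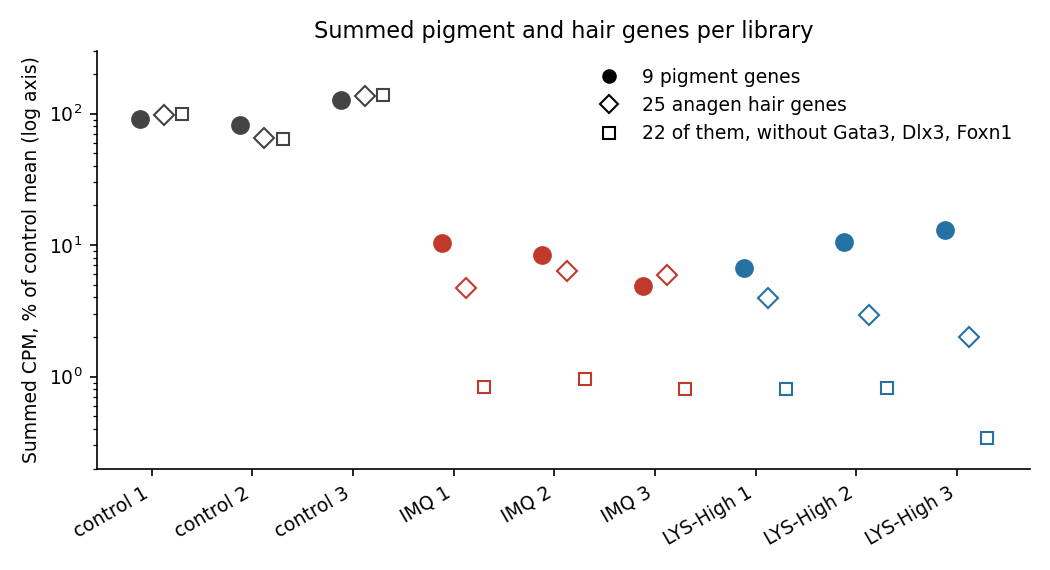
Summed CPM of the 9 pigment genes (filled circles), of 25 anagen hair genes (open diamonds) and of 22 of them without Gata3, Dlx3 and Foxn1 (open squares) in each library, as percent of the control mean (log axis). The pigment sum is 4.86% to 13.0% in the treated libraries and the sum of the 22 hair genes 0.344% to 0.962%.

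The genes whose log2(CPM + 1) ran most alike with the mean of the pigment genes over the 9 libraries were Fbp1, Trpm1, Rspo2, Dclk3, Mc1r, Padi3, Bach2, Crym, Acan and Aard, with Pearson's r from 0.991 to 0.997. The libraries share group and depth, and any gene low in both treated groups scores high, so that r describes likeness only. Trpm1 and Mc1r are melanocyte genes and Padi3 is a hair gene, all 3 on the lists above. Fbp1, a gluconeogenic enzyme, had 34.8, 24.6 and 44.5 CPM in the control libraries, 2.49, 1.71 and 1.65 CPM in the IMQ libraries and 1.52, 3.11 and 2.79 CPM in the LYS-High libraries. Of the 10, 3 remained with log2(CPM + 0.1) and 1 with Spearman's rho. Among 16383 genes ranked, other members of the lists lay far apart. Krt35 was at rank 19 (r = 0.99), Shh at 22 (r = 0.99), Corin at 54 (r = 0.98), Edn3 at 96 (r = 0.98) and Mlph at 109 (r = 0.98). Kit was at 3041 (r = 0.78), Sox10 at 5114 (r = 0.62) and Gpnmb at 8870 (r = 0.00). Foxn1 was at 12621 (r = -0.72) and Erbb3 at 13300 (r = -0.79).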

How the data were processed

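RNA of 9 skin libraries was sequenced by the authors after extraction with TRIzol and an NEBNext Ultra kit, which does not mark strand. The submitters' processing notes name HISAT2, HTSeq 0.13.5 and GRCm38. The authors deposited whole-number read counts per gene, without normalization, and FPKM values, whose lengths equalled the GENCODE M21 exon lengths for the pigment genes. The labels say LYS without a dose, and the name LYS-High comes from the methods of the study. The members and all gene lists were chosen with earlier results of these data known.

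Each comparison was fitted on the whole table with edgeR 4.0.16 in R 4.3.3 (TMM, filterByExpr, quasi-likelihood test, Benjamini-Hochberg), with only the compared groups, at the study's thresholds (adjusted p under 0.05, absolute log2 fold change over 0.58). The scripts were tested on simulated data. DESeq2 1.42.0, other scalings, no filter, all 9 libraries, a replicate block, a fold threshold of 1 and leaving out each library were alternatives. Named were the 9 genes, key genes fixed for each list, the smallest p in each direction of the lineage, melanosome and hair lists, the 10 genes most alike, and markers of other cells. Naming of some other list members followed their values. Library totals were 14658645 to 19609878. The E-box search, the count of genes by order of the control libraries, and the list sums without Hdc, or without Gata3, Dlx3 and Foxn1, were added after seeing the data. The values of 2 genes of the Schwann cell list are not reported here, and they were kept in its sums and counts.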

Additional observations from a re-analysis of the deposited data

How the results depend on the processing

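Between the IMQ and control groups all 9 pigment genes kept their direction and call in every alternative. Between LYS-High and IMQ, 0 pigment genes were called except Mitf without LYS-High replicate 1, so that leaving out single libraries gave 0 to 1, although genes called over the whole table moved from 0 to 3319 with DESeq2, 2419 without the filter, 3040 with all 9 libraries in the fit, and 0 to 4262 (1873 without IMQ replicate 1, 4262 without LYS-High replicate 1) with single libraries left out. Values near 0 changed sign in that comparison. Dct was at 0.22 with library totals and -0.34 to 0.26 with libraries left out, Tyrp1 at -0.0082 with DESeq2, -0.010 with median-of-ratios scaling, -0.067 with all 9 libraries and -0.36 to 0.26 with libraries left out, and Tyr at -0.11 to 1.19 with libraries left out. Between LYS-High and control, the genes called over the whole table, 4476, became 2910 at an absolute log2 fold change over 1 and 2579 to 5072 with libraries left out (2579 without control replicate 1, 2947 without control replicate 2, 2926 without LYS-High replicate 2). The cause of these moves was not tested.

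With the replicate number as a block, Dct was at 0.059 between LYS-High and IMQ, and the Mitf call between LYS-High and control was lost (adjusted p = 0.0626), as it was with median-of-ratios scaling (0.0501). The block changed no other pigment call. It is not a paired design, since same-numbered libraries correlated between -0.46 and 0.2 in their deviations from the group means. The ranks of 8 pigment genes in control skin changed when CPM replaced FPKM. Counts of at most 8 reads per library for Oca2, Slc45a2 and Slc24a5 in treated skin limit what can be said of them.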
